A study of Mus musculus with 8 samples.

Results

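The genes described here encode the subunits of mTOR complexes 1 and 2 and the factor Telo2, measured in the perivascular adipose tissue of the thoracic aorta, a fat depot that sheathes the vessel. There were 10 members, defined by their symbols: Rictor, Mapkap1, Prr5, Prr5l, Mlst8, Mtor, Deptor, Rptor, Akt1s1 and Telo2. Each was read from the probe set that the array annotation assigns to that symbol alone. Every member had exactly 1 such probe set among the 28371 on the array, so no choice between probe sets was needed. The 10 are part of 18782 genes with a probe set of their own.

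The samples were 4 arrays labelled RictoraP2KO and 4 labelled control, the latter of genotype Rictorfl/fl, a floxed Rictor allele with no Cre named. In RictoraP2KO mice, Cre recombinase is driven by the aP2 (Fabp4) promoter, which is active in fat cells and, per the series title, the deletion concerns brain as well as fat. All mice were males of 17 to 22 weeks, starved overnight and killed at 9 am, so a single time of day was sampled. Whole tissue was taken, and any of its cells outside the reach of the promoter would still carry Rictor. Which cell types of the tissue the promoter reaches was not examined. Whether each sample is a separate mouse or a pool is not stated in the labels, so the p-values speak only of the spread among these samples, which may be technical.

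As background, the kinase mTOR works in 2 complexes that share the kinase, the WD40 protein mLST8 and the inhibitor DEPTOR. Complex 1 is defined by Raptor and is inhibited by PRAS40; it responds to amino acids and growth factors and drives protein and lipid synthesis. Complex 2 is defined by Rictor together with mSIN1 and a PROTOR protein, and phosphorylates Akt, SGK1 and protein kinase C. In fat, the second complex is known for its place downstream of the insulin receptor.

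Values are log2 RMA signals, a measure of array brightness after the authors' normalisation. Signals of different probe sets depend on their probes as well as on the RNA, so the genes are not ranked by abundance here. As a rough yardstick, the median signal of the array was 3.76; 9 of the 10 members had a mean above it and Telo2 had a mean of 3.71, just below. A difference is the mean of the arrays labelled RictoraP2KO minus that of the control arrays on the log2 scale. It was tested with limma, adjusted by Benjamini-Hochberg over all 28371 probe sets, with 0.05 as the threshold.

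The tissue and the arrays were checked first. Of the fat and brown fat markers, Adipoq lay between 10.85 and 11.08, Plin1 between 10.31 and 10.61, Ucp1 between 11.32 and 12.01 and Cidea between 10.71 and 10.92 over the 8 arrays. Other members of these lists were dimmer, such as the leptin gene Lep, at 2.74 to 5.81, and Prdm16, at 6.12 to 7.01. Other tissues showed unevenly. The mean of the 9 lung epithelial markers, relative to their mean over the 8 arrays, was 2.67 in control replicate 2. The surfactant gene Sftpc read 9.20 there, against 1.77 to 1.92 elsewhere. Cyp2f2 of the same list did not stand out there, at 7.03, and was highest in control replicate 4, at 8.37. Of the neuron markers, 9 of 10 were measured, and their mean stood at 1.47 in control replicate 3, against -0.40 to -0.11 in the other arrays. Chga of that list was highest in control replicate 1. In RictoraP2KO replicate 2 the mean of the 9 skeletal muscle markers was 1.14, with -0.23 to -0.055 in the others. Myh2 and Myog of that list did not stand out there, and both were highest in control replicate 3. RictoraP2KO replicate 2 also had the highest mean of the cardiac markers, at 1.54. RictoraP2KO replicate 1 had the lowest mean of the 8 brown fat markers (-0.61, others -0.21 to 0.34) and of the 8 measured of 9 cardiac markers (-1.23, others -0.80 to 1.54). It had the highest mean of the 10 adipocyte markers (0.23, others -0.092 to 0.019), which came from Lep, at 5.81 there: without Lep the mean of the other 9 was -0.0019, within the -0.055 to 0.062 of the other arrays. The mean of the 8 macrophage markers was 0.44, 0.30, -0.28 and 0.21 in RictoraP2KO replicates 1 to 4 and ran from -0.32 to 0.046 in the control arrays. Means of 8 measured of 9 B cell markers lay between -0.37 and 0.83, the highest in RictoraP2KO replicate 2. Those of 7 endothelial markers lay between -0.11 and 0.11, and those of 6 smooth muscle markers between -0.41 and 0.37.

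Of the 10 members, 0 passed the test, against 1 of 28371 probe sets on the whole array, or 0.00352%. An unadjusted limma p under 0.05 was found for 2 members, Rictor and Mtor, in opposite directions, where 7.27% of all probe sets had one. In none of the 10 did the groups separate without overlap, against 4.25% of all probe sets. The median difference over the members was -0.098 and that over all probe sets was -0.0033. By role, 3 of 4 genes specific to complex 2 lay above 0, 2 of 2 specific to complex 1 lay below 0, and all 4 shared genes lay below 0. Over all 18782 genes 8786 lay above 0 and 9996 below.

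**Figure D1:**
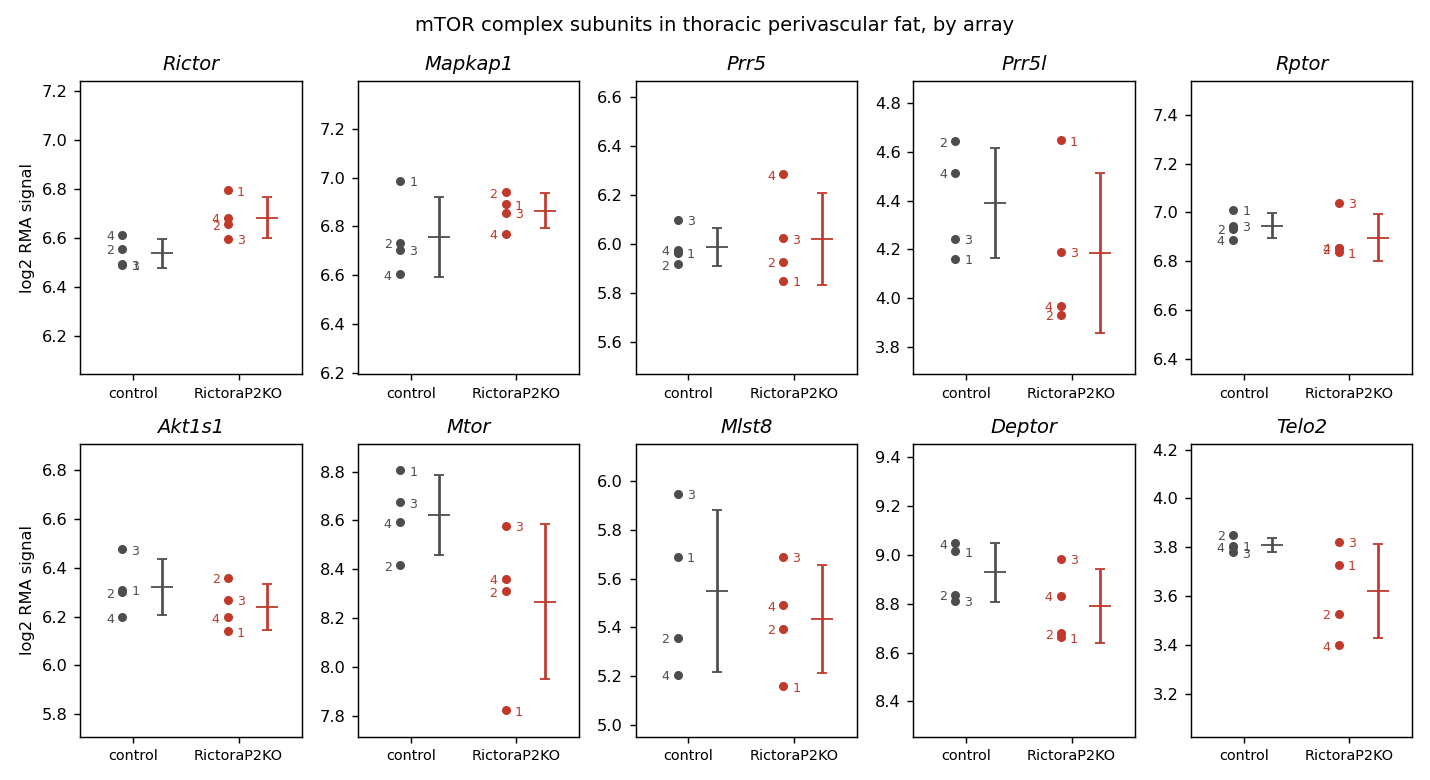
Log2 RMA signal of each member in each array (points, numbered by replicate) with the group mean and SD (n = 4 arrays per group) beside them; each panel spans 1.2 log2 units. The points of the groups overlap in all 10 panels, and RictoraP2KO replicate 1 is the lowest array in 6 of them.

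Mtor and Mlst8 had the 2 lowest correlations with Rictor in deviations from the group means, neither passing after adjustment. The regulatory sequences of 3 members are shown: these 2 and Rictor, the targeted gene. Each is a window of 200 bases, from 250 to 51 bases before the RefSeq transcription start (build GRCm38.p6), written 5′ to 3′ on the strand of the gene. They lie at chr15:6708131-6708330 on the plus strand for Rictor, chr4:148448332-148448531 on the plus strand for Mtor and chr17:24479129-24479328 on the minus strand for Mlst8. Capitals mark an ETS element, CCGGAAG.
Rictor: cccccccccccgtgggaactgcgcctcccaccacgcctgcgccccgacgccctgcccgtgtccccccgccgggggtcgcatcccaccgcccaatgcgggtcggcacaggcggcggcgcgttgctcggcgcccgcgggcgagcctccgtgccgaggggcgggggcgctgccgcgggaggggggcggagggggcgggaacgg
Mtor: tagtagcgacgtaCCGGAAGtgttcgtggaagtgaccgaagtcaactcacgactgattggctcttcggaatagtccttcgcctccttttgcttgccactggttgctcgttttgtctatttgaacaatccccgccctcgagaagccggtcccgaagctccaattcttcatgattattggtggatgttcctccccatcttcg
Mlst8: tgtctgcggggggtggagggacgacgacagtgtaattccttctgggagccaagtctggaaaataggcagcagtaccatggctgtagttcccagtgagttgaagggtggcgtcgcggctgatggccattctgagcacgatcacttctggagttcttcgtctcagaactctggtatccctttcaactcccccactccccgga

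The Rictor window was 83.0% G or C with 31 CpG dinucleotides, that of Mtor 51.0% with 14 and that of Mlst8 56.0% with 9. The median over all 32851 RefSeq windows of the same length was 51.5% G or C. Windows were available for 9 members, 14 in all because some have several starts; Deptor had none in the table. On both strands they were searched for the clock elements CACGTG (the E-box), TTATGTAA (the D-box) and AGGTCA (the ROR element). The other motifs searched were TGTTTAC (FOXO), CCGGAAG (ETS) and TATAAA (the TATA box). The windows end 51 bases before the start, so the search cannot tell whether a motif, such as a TATA box, lies closer to it. Of the 14 windows, 0 held the E-box, which is in 4.34% of all windows, 0 the D-box (0.658%) and 0 the ROR element (11.4%). The FOXO letters were in both overlapping Mapkap1 windows (2.58% of all), the ETS letters in that of Mtor (3.98%) and the TATA letters in 1 of 3 Prr5l windows (9.14%). A match is a string of letters and not a binding site, and the arrays do not measure binding.

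Rictor, which names and holds together complex 2, was the gene targeted in these mice. Its signal was 6.80, 6.66, 6.60 and 6.68 in RictoraP2KO replicates 1 to 4 and 6.49, 6.56, 6.49 and 6.61 in control replicates 1 to 4. Of the arrays labelled RictoraP2KO, 3 lay above every control array; replicate 3 lay below control replicate 4, so the groups overlapped. The means were 6.68 ± 0.084 (SD, n = 4) and 6.54 ± 0.059 (SD, n = 4). The difference was 0.14 (SE 0.063; limma adjusted p = 0.685, 0.0479 before adjustment), with a 95% interval from 0.0017 to 0.29. An exact permutation test, two-sided over 70 ways to place the labels, gave p = 0.0571, where 0.0286 is the smallest it can give. The signal thus does not show the loss that the label names, and every difference here rests on the labels. Which exons were deleted is not given in the labels, and the positions of the probes were not examined, so the probe set may not read the deleted part. In whole tissue, for this and the other genes, a change in the share of a cell type and a change in the RNA per cell cannot be told apart.

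Among the other genes of complex 2, Mapkap1 encodes mSIN1, which brings the substrates to the kinase. Its signal was 6.89, 6.94, 6.86 and 6.77 in RictoraP2KO replicates 1 to 4 and 6.99, 6.73, 6.70 and 6.61 in control replicates 1 to 4. Control replicate 1 was the highest of all 8 arrays and the other 3 control arrays were the lowest 3. The difference was 0.11 (SE 0.087; 95% interval -0.090 to 0.30; limma adjusted p = 0.819). Without control replicate 1 it was 0.18 (limma adjusted p = 0.706, 0.0282 before adjustment), and without control replicate 4 it was 0.056.

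Prr5 and Prr5l encode PROTOR-1 and PROTOR-2, paralogous proteins that bind Rictor. Prr5 read 5.85, 5.93, 6.02 and 6.28 in RictoraP2KO replicates 1 to 4 and 5.96, 5.92, 6.10 and 5.98 in control replicates 1 to 4. The arrays labelled RictoraP2KO held both the lowest and the highest value, and the difference was 0.032 (SE 0.096; 95% interval -0.19 to 0.25; limma adjusted p = 0.963). Its sign turned to -0.056 without RictoraP2KO replicate 4. Prr5l read 4.65, 3.93, 4.19 and 3.97 in RictoraP2KO replicates 1 to 4 and 4.16, 4.64, 4.24 and 4.51 in control replicates 1 to 4. Here RictoraP2KO replicate 1 was the highest array of all while replicates 2 and 4 were the lowest, below every control array. The difference was -0.21 (SE 0.171; 95% interval -0.59 to 0.18; limma adjusted p = 0.824). Without RictoraP2KO replicate 1 it was -0.36 (limma adjusted p = 0.629, 0.0253 before adjustment), without RictoraP2KO replicate 2 it was -0.12, and without the 3 arrays with lung, neuron or skeletal muscle signal it was -0.068.

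Complex 1 is represented by Rptor and Akt1s1. Rptor encodes Raptor, the scaffold that recruits substrates to complex 1. It read 6.84, 6.85, 7.04 and 6.86 in RictoraP2KO replicates 1 to 4 and 7.01, 6.93, 6.95 and 6.89 in control replicates 1 to 4. Replicates 1, 2 and 4 labelled RictoraP2KO lay below every control array, and replicate 3 lay above every one. Of the 10 members it had the smallest range over the arrays, 0.20. The difference was -0.048 (SE 0.065; 95% interval -0.20 to 0.099; limma adjusted p = 0.891), or -0.096 without RictoraP2KO replicate 3 (limma adjusted p = 0.722). Akt1s1 encodes PRAS40, which inhibits complex 1 until Akt phosphorylates it. It read 6.14, 6.36, 6.27 and 6.20 in RictoraP2KO replicates 1 to 4 and 6.31, 6.30, 6.48 and 6.20 in control replicates 1 to 4, with the lowest value in RictoraP2KO replicate 1 and the highest in control replicate 3. The groups overlapped widely, with a difference of -0.080 (SE 0.077; 95% interval -0.25 to 0.096; limma adjusted p = 0.846). It was -0.028 without control replicate 3, -0.046 without RictoraP2KO replicate 1 and -0.12 without control replicate 4.

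Mtor, the kinase of both complexes, had the largest difference of the 10 members. Its signal was 7.82, 8.31, 8.58 and 8.36 in RictoraP2KO replicates 1 to 4 and 8.81, 8.42, 8.67 and 8.59 in control replicates 1 to 4. Replicates 1, 2 and 4 labelled RictoraP2KO lay below every control array, and replicate 3 lay above control replicate 2. The means were 8.27 ± 0.32 (SD, n = 4) and 8.62 ± 0.16 (SD, n = 4), a difference of -0.35 (SE 0.155; 95% interval -0.71 to -0.0039). It did not pass (limma adjusted p = 0.685, 0.0480 before adjustment; exact permutation p = 0.0571). RictoraP2KO replicate 1 weighed on the value: without it the difference was -0.21 (limma adjusted p = 0.722, 0.0940 before adjustment). That array also had the lowest mean of the brown fat markers, of which 8 of 8 were measured. Their mean ran from -0.61 to 0.34 in the arrays labelled RictoraP2KO and from -0.21 to 0.27 in the control arrays. Of the single markers only Elovl3 (6.84, others 8.29 to 10.75) and Prdm16 (6.12) were lowest in that array. Ucp1 was lowest in control replicate 4. The mean of the macrophage markers, 8 of 8 measured, lay above every control array in RictoraP2KO replicates 1, 2 and 4. In these 3 arrays Mtor lay below every control array and Rictor above. Not every single macrophage marker lay above every control array in these 3 arrays: Cd68 was highest in control replicate 1. Adgre1 lay above every control array only in RictoraP2KO replicate 1. Csf1r in RictoraP2KO replicate 2 (6.829) lay below control replicate 4 (6.84). The part of either list in these values was not tested. The arrays of mixed tissue signal form another set of 3: RictoraP2KO replicate 2 and control replicates 2 and 3. These had skeletal muscle, lung and neuron signal, and RictoraP2KO replicate 2 belongs to both sets. Without the 3 arrays of mixed tissue signal the Mtor difference was -0.44 (limma adjusted p = 0.969).

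Mlst8 encodes the WD40 protein mLST8, which stabilises the kinase domain in both complexes. Signals were 5.16, 5.39, 5.69 and 5.49 in RictoraP2KO replicates 1 to 4 and 5.69, 5.36, 5.95 and 5.21 in control replicates 1 to 4. The spread within each group exceeded the difference between them, -0.12 (SE 0.171; 95% interval -0.50 to 0.27; limma adjusted p = 0.902). Without control replicate 3 the sign turned, at 0.016, and without the 3 arrays of mixed tissue signal it was -0.0010. Deptor encodes DEPTOR, an inhibitor bound to the kinase. It read 8.66, 8.68, 8.98 and 8.83 in RictoraP2KO replicates 1 to 4 and 9.02, 8.84, 8.81 and 9.05 in control replicates 1 to 4. RictoraP2KO replicates 1 and 2 lay below every control array, and the difference was -0.14 (SE 0.092; 95% interval -0.35 to 0.071; limma adjusted p = 0.781).

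Telo2 encodes a chaperone-associated protein needed for the folding and stability of mTOR and related kinases. It read 3.73, 3.53, 3.82 and 3.40 in RictoraP2KO replicates 1 to 4 and 3.81, 3.85, 3.78 and 3.80 in control replicates 1 to 4. The control arrays lay within 0.070 of each other, with an SD of 0.029, against 0.19 in the arrays labelled RictoraP2KO, of which 3 lay below every control array. The difference was -0.19 (SE 0.093; 95% interval -0.40 to 0.021; limma adjusted p = 0.724, 0.0722 before adjustment; exact permutation p = 0.114). With RictoraP2KO replicate 4 left out it was -0.12.

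**Figure D2:**
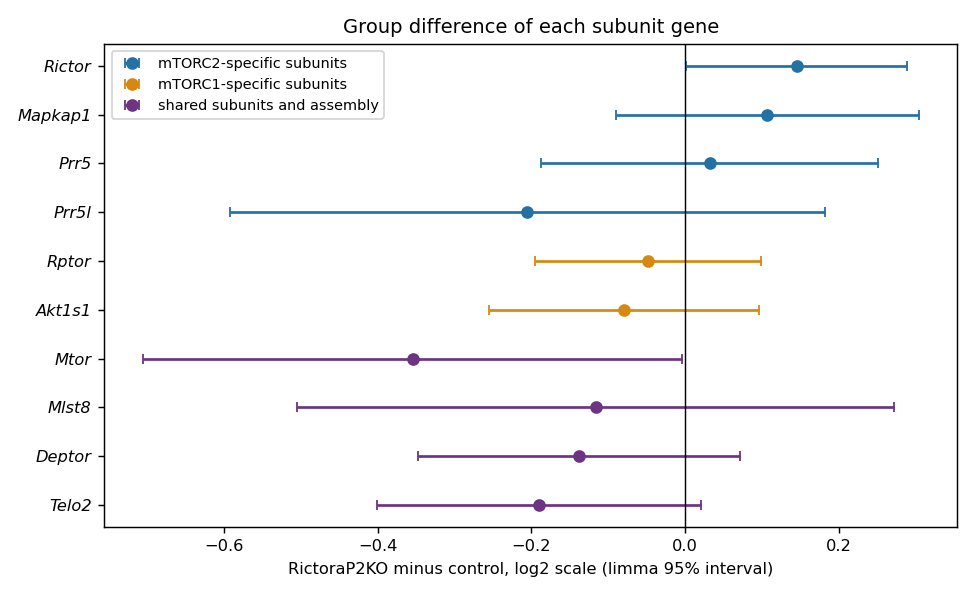
Difference of each member between the arrays labelled RictoraP2KO and control (points, log2 scale) with its 95% interval from limma (bars), coloured by role. The intervals of Rictor (0.0017 to 0.29) and Mtor (-0.71 to -0.0039) end close to 0 on opposite sides, those of the other 8 members include 0, and 0 members passed after adjustment.

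The members differed in how much they varied within a group. The pooled SD within groups was 0.073 for Rictor and 0.077 for Rptor, the defining subunits of the complexes, below the median of 0.13 over all probe sets. It was 0.25 for Mtor, 0.28 for Prr5l and 0.28 for Mlst8. RictoraP2KO replicate 1 was the lowest array for 6 members (Prr5, Rptor, Akt1s1, Mtor, Mlst8 and Deptor) and the highest for Rictor and Prr5l. Over all probe sets this array was lowest in 13.9% and highest in 14.3%. RictoraP2KO replicate 3 stood the other way for several of these genes, 0.31 above its group mean for Mtor, 0.26 for Mlst8, 0.19 for Deptor and 0.14 for Rptor, and -0.087 for Rictor.

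**Figure D3:**
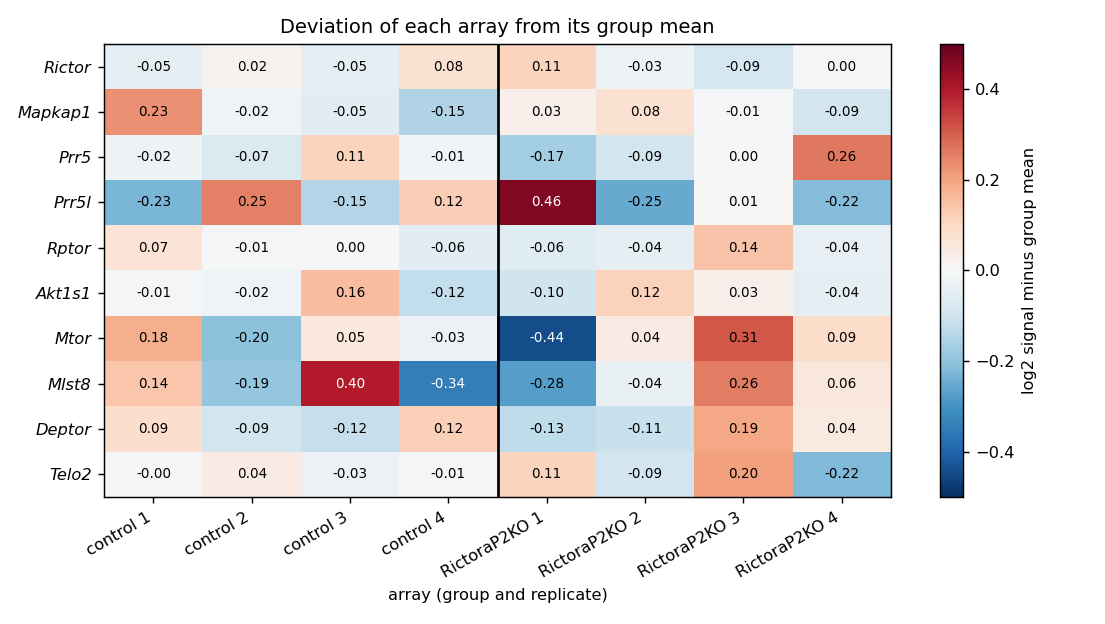
Log2 signal of each member in each array minus the mean of its group (colour and printed value). RictoraP2KO replicate 1 deviates by -0.44 for Mtor, 0.46 for Prr5l and 0.11 for Rictor, and RictoraP2KO replicate 3 by 0.31 for Mtor and -0.087 for Rictor.

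Of the 45 pairs of members, 23 had a correlation above 0 between their deviations from the group means, with a median of 0.060. The 2 lowest correlations were those of Rictor with Mlst8 and Mtor; with the other shared genes Rictor gave r = -0.33 (Deptor; exact permutation p = 0.484, adjusted p = 0.829) and -0.024 (Telo2; exact permutation p = 0.965, adjusted p = 0.976). For Rictor and Mlst8, r was -0.88 over the 8 arrays (exact permutation within groups, two-sided p = 0.0122) and rho -0.90 (exact permutation p = 0.0243). Here rho is the correlation of ranks taken separately within each group. For Rictor and Mtor, r was -0.87 (exact permutation p = 0.0278) and rho -0.70 (exact permutation p = 0.111). Adjusted over the 45 pairs neither relation passed (exact permutation, adjusted p = 0.412 for r in both, 0.273 and 0.455 for rho). With the 2 arrays farthest from the median of Rictor left out, r was -0.78 for Mlst8 and -0.86 for Mtor, and without RictoraP2KO replicate 1 it was -0.89 and -0.68. The third lowest, Prr5l with Mtor, gave r = -0.79 (exact permutation p = 0.0556, adjusted p = 0.412) and rho -0.60 (exact permutation p = 0.212, adjusted p = 0.635), but r = -0.048 without the 2 farthest arrays, so it rests on them, and r = -0.43 without RictoraP2KO replicate 1. Rictor with Rptor gave r = -0.77 (exact permutation p = 0.0660, adjusted p = 0.412), rho -0.80 (exact permutation p = 0.0625, adjusted p = 0.455) and r = -0.80 without the 2 farthest arrays. Rictor with Akt1s1 gave r = -0.73 (exact permutation p = 0.0469, adjusted p = 0.412) and rho -0.90 (exact permutation p = 0.0243, adjusted p = 0.273). For that pair r was -0.38 without the 2 farthest arrays.

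**Figure D4:**
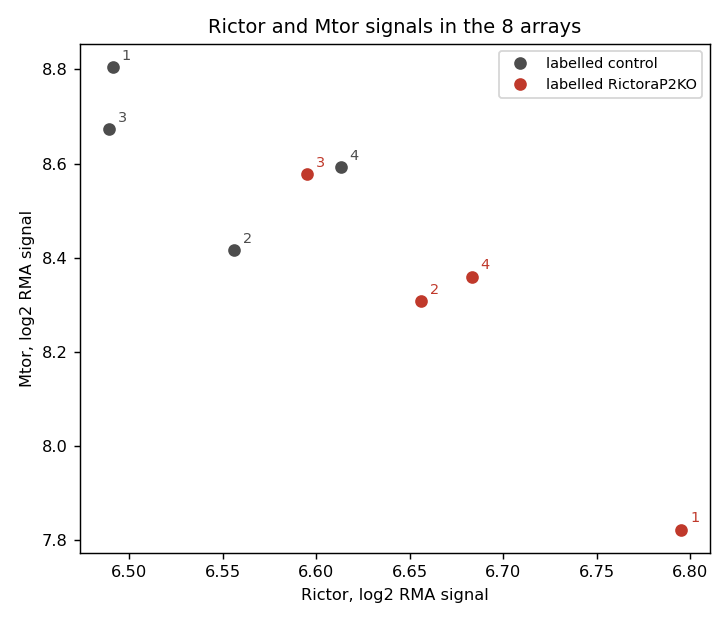
Log2 RMA signal of Mtor against that of Rictor in the 8 arrays, numbered by replicate and coloured by group. RictoraP2KO replicate 1 has the highest Rictor (6.80) and the lowest Mtor signal (7.82), and control replicate 1 has the highest Mtor signal (8.81) with a Rictor signal of 6.49.

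Among the highest correlations were those below. Rictor and Prr5l, both of complex 2, had r = 0.73 (exact permutation p = 0.0885, adjusted p = 0.412), rho 0.50 (exact permutation p = 0.295, adjusted p = 0.664) and r = 0.27 without the 2 farthest arrays, so the relation rests on them; r was 0.38 without RictoraP2KO replicate 1. Akt1s1 and Mlst8 had r = 0.75 (exact permutation p = 0.0538, adjusted p = 0.412), rho 0.70 (exact permutation p = 0.111, adjusted p = 0.455) and r = 0.88 without the 2 arrays farthest from the median of Akt1s1. Mtor and Mlst8 had r = 0.70 (exact permutation p = 0.0347, adjusted p = 0.412), rho 0.80 (exact permutation p = 0.0625, adjusted p = 0.455) and r = 0.58 without the 2 farthest arrays. Rptor and Mtor had r = 0.70 (exact permutation p = 0.137, adjusted p = 0.48) and rho 0.90 (exact permutation p = 0.0243, adjusted p = 0.273). Without the 2 farthest arrays r was 0.30, so its size depends on them, and without RictoraP2KO replicate 1 it was 0.76. All signals of an array share its RNA, hybridisation and normalisation.

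Over the 10407 other genes whose mean lay above the array median, those most like Rictor in their deviations from the group means over the 8 arrays were Rbm26 (r = 0.98), Nsun6 (r = 0.98) and Mospd2 (r = 0.98). The gene most opposite was Rtf2 (r = -0.99). For Mtor the most alike were Pomp, Sirt2 and Alkbh6 (r = 0.98 each), and the most opposite was Bmp1 (r = -0.99). These are the extremes of a ranking of 10407 genes over 8 arrays and are given as a description only.

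The other genes of the pathway were taken from 6 lists of 76 genes, of which 70 had a probe set of their own; the others were not analysed here. Of these 70, 0 passed the test in either direction, the smallest limma adjusted p being 0.651. There were 28 above 0 and 42 below, with a median difference of -0.012. Before adjustment 6 of the 70 had a limma p under 0.05, 3 higher (Sesn2, Rragb and Mios) and 3 lower (Lamtor4, Kptn and Tsc1), a share near the 7.27% of all probe sets. The groups did not overlap in 3 of the 70, Sesn2, Lamtor4 and Mios, where 4.25% of all probe sets show this.

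The list of Rag GTPases, Ragulator and amino acid sensors had 29 of 30 genes measured, 11 above 0 and 18 below, and 0 passed the test. Sesn2 encodes Sestrin2, a leucine sensor that restrains complex 1. It read 6.87, 7.58, 6.79 and 7.90 in RictoraP2KO replicates 1 to 4 and 6.76, 6.56, 6.61 and 6.29 in control replicates 1 to 4. Replicates 2 and 4 labelled RictoraP2KO stood well above the rest, while replicate 3 exceeded control replicate 1 by little. The difference was 0.73 (SE 0.243; limma adjusted p = 0.651, 0.0151 before adjustment), and 0.52 without RictoraP2KO replicate 4. Lamtor4, a subunit of the Ragulator complex that anchors the Rag GTPases to the lysosome, read 8.21, 8.19, 8.47 and 8.35 in RictoraP2KO replicates 1 to 4. In control replicates 1 to 4 it read 8.52, 8.47, 8.49 and 8.53, a difference of -0.20 (SE 0.072; limma adjusted p = 0.663). Mios, a subunit of the GATOR2 complex, differed by 0.12 (SE 0.050), the GTPase gene Rragb by 0.26 (SE 0.098) and Kptn, of the KICSTOR complex, by -0.26 (SE 0.107), each with a limma adjusted p = 0.668. The median of this list was -0.021.

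The TSC complex switches off Rheb, the GTPase that activates complex 1. Tsc1 read 6.23, 6.19, 6.17 and 5.92 in RictoraP2KO replicates 1 to 4 and 6.19, 6.43, 6.52 and 6.46 in control replicates 1 to 4. Only control replicate 1 lay within the range of the other group. The difference was -0.27 (SE 0.096; limma adjusted p = 0.662, 0.0209 before adjustment). The other TSC subunits differed by -0.12 for Tsc2 (SE 0.086) and -0.22 for Tbc1d7 (SE 0.134), and Rheb by 0.067 (SE 0.121). The Tsc2 value was -0.064 without control replicate 1 and -0.074 without RictoraP2KO replicate 2. Without RictoraP2KO replicate 1 the Tbc1d7 value was -0.11, and without RictoraP2KO replicate 2 the sign of Rheb turned, at -0.051. Of the 7 genes of this list 2 lay above 0 and 5 below.

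Among 12 measured of 13 substrates of complex 1, 0 had an unadjusted p under 0.05, and 5 lay above 0. Larp1, which represses translation of ribosomal protein mRNAs, differed by 0.23 (SE 0.109; limma adjusted p = 0.717). Grb10, which dampens insulin receptor signalling, differed by 0.14 (SE 0.089) and Eif4ebp1, the repressor of cap-dependent translation, by -0.069 (SE 0.101). The Grb10 value was 0.082 without control replicate 3 and 0.037 without the 3 arrays of mixed tissue signal. The 11 measured of 12 substrates and partners of complex 2 had 7 above 0 and 0 with an unadjusted p under 0.05. Here Akt1 differed by 0.070 (SE 0.068), Akt2 by -0.033 (SE 0.086), Sgk1 by 0.24 (SE 0.189) and the protein kinase C gene Prkcb by 0.24 (SE 0.158). The limma adjusted p-values of these 4 ran from 0.779 to 0.956. Without RictoraP2KO replicate 3 the Sgk1 value was 0.45 (limma adjusted p = 0.384, 0.00107 before adjustment). That of Prkcb was then 0.41 (limma adjusted p = 0.384, 0.00109 before adjustment). The Sgk1 value was 0.15 without RictoraP2KO replicate 4, and that of Prkcb 0.15 without RictoraP2KO replicate 2. For Akt1 the value was 0.036 without RictoraP2KO replicate 3 and 0.12 without control replicate 3.

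Telo2 acts with other chaperones and on other kinases of the mTOR family, which allowed its neighbours in function to be set beside it. Of the 9 assembly chaperone genes 6 were measured, and all 6 differed by less than the SE of the fit, from -0.037 to 0.012. Among them the direct partner Tti1 differed by -0.031 (SE 0.062) and Pih1d1 by 0.012 (SE 0.075). Of the 5 related kinases, Prkdc, the DNA-dependent protein kinase, differed by 0.17 (SE 0.087; limma adjusted p = 0.732) and Trrap, a scaffold of histone acetyltransferases, by -0.12 (SE 0.081; limma adjusted p = 0.790). Without RictoraP2KO replicate 2 the Trrap value was -0.059, and without RictoraP2KO replicate 4 the Prkdc value was 0.11. Neither list held a gene with an unadjusted p under 0.05.

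**Figure D5:**
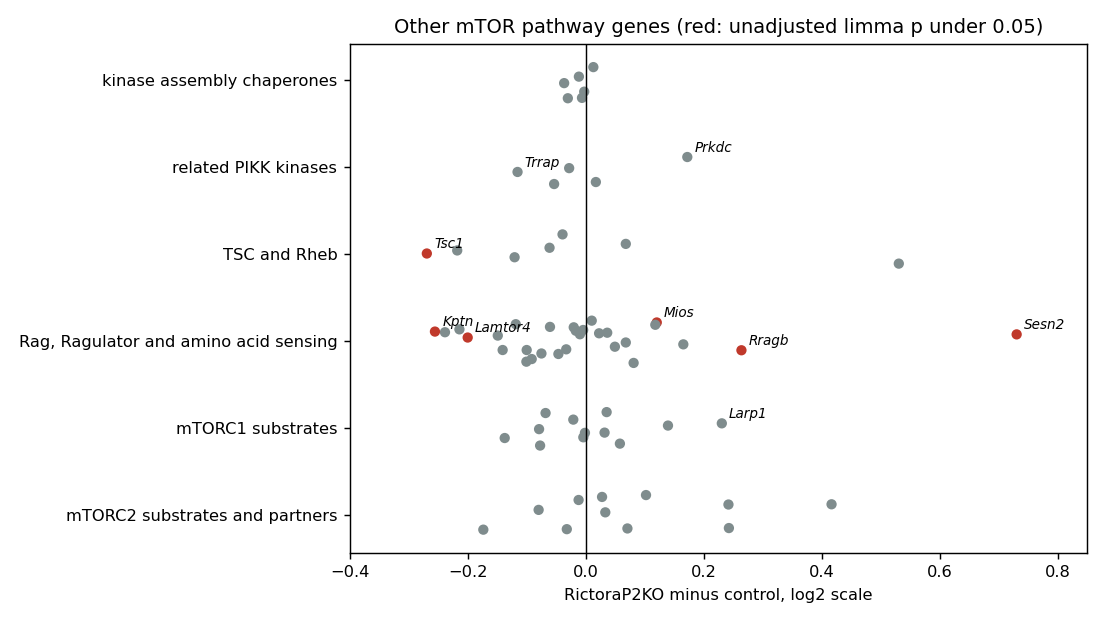
Difference between the arrays labelled RictoraP2KO and control (log2 scale) for the 70 measured pathway genes, 1 point a gene, by list; the vertical place of a point within a list has no meaning. Sesn2 (0.73) lies farthest to the right and Tsc1 (-0.27) farthest to the left, and none of the 70 passed the adjusted test.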

How the data were processed

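Each of the 8 samples was hybridised to 1 array. The authors deposited 1 table of log2 signals, which per the submitters' processing notes come from Affymetrix Power Tools 1.10.2 with RMA, a method that corrects background, equalises probe distributions and combines probes into sets. Differences in total RNA output would not be seen. The array annotation gave 1 symbol to 21158 probe sets, several to 1881 and none to 5332; the sources used here do not give its genome build. A second probe set, assigned to both Mlst8 and Bricd5, was left out. All probe sets were compared with lmFit and eBayes (two-sided) of limma 3.58.1, under R 4.3.3, with no filter and no covariate. The test was checked on simulated data, for recovery of changes larger than those of the genes named here. That check does not show that differences as small as these would be found. The number of arrays limits the precision. Correlations used deviations from group means, or for rho the ranks within each group, with all 576 reorderings within groups as an exact test.

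The members and lists were chosen with earlier results of these data known. The genes named are the 10 members, in each pathway list those past the threshold or otherwise the 2 with the smallest unadjusted p, direct partners of members, and for Rictor and Mtor the 3 most alike and the 1 most opposite gene. Rragb, Mios and Kptn fall outside this rule and were chosen once their values had been seen. Same-numbered samples did not deviate together (correlations from -0.15 to 0.087). Alternatives were a filter on dim probe sets, renormalisation, other variance models, array weights, a replicate block, omissions of arrays, and other thresholds and feature sets.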

Additional observations from a re-analysis of the deposited data

Results flagged for a closer look

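In groups of 4 arrays, a value was singled out when its gap to the nearest other array took more than 0.829 of the range of the group, which chance gives in about 1 in 20 groups. This was examined for the 10 members, the 20 other pathway genes whose differences were recomputed under the alternatives, and the 10 marker lists, not for the rest of the 70 pathway genes. Of these 80 groups, 10 had such a value. Among the members this was Rptor in RictoraP2KO replicate 3, at 7.04 against 6.84 to 6.86 in the other 3 arrays of the group. Among those 20 pathway genes, Tbc1d7 read 6.82 in RictoraP2KO replicate 1 (others 7.23 to 7.28), Rheb 8.65 in RictoraP2KO replicate 2 (8.15 to 8.22) and Sgk1 7.20 in RictoraP2KO replicate 3 (7.98 to 8.11). In control replicate 3, Larp1 read 8.14 (7.77 to 7.81) and Akt1 8.06 (7.87 to 7.89).

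The other values were means of marker lists, relative to the mean over all 8 arrays. Adipocyte markers stood at 0.23 in RictoraP2KO replicate 1 (others of the group -0.064 to -0.036), or at -0.0019 without Lep, and skeletal muscle markers at 1.14 in RictoraP2KO replicate 2 (-0.23 to -0.18). Lung epithelial markers stood at 2.67 in control replicate 2 (-0.53 to -0.34) and neuron markers at 1.47 in control replicate 3 (-0.21 to -0.11). Their part in the values of the members was not tested.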

How the results depend on the processing

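No member and no other pathway gene passed under any alternative that kept the adjusted threshold of 0.05 or set it at 0.1. At an unadjusted limma p under 0.05 there were 2 members, 6 pathway genes and 2062 probe sets. Over all probe sets, where 1 passed, 0 passed without dim probe sets, without moderation, with the replicate block and without the 3 arrays with signal of another tissue, and from 0 to 5 passed when 1 array was left out. The cause was not tested. With the replicate number as a block the differences keep their size by construction, and Rictor (0.14; unadjusted limma p = 0.0888) and Mtor (-0.35; 0.0743) had no p under 0.05; 0 of 8 arrays correlated best with the array of their own number. Differences of single genes were recomputed for the 10 members and 20 of the 70 pathway genes. Among these, over the omissions of 1 array, signs turned for Prr5 (-0.056 to 0.089), Mlst8 (-0.23 to 0.016), Rheb (-0.051 to 0.12), Eif4ebp1 (-0.12 to 0.0031), Pih1d1 (-0.031 to 0.052) and Akt2 (-0.083 to 0.024). Without the 3 arrays they turned for Pih1d1 (-0.045) and Rheb (-0.15). The other 8 members kept their sign under every alternative run on them, with Rictor between 0.11 and 0.17 and Mtor between -0.46 and -0.21. The filter on dim probe sets removed Telo2. The omission of Lep from the adipocyte markers was chosen after seeing the data. The 3 arrays left out together were likewise picked by their marker signals in these data.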
